A study of Mus musculus with 4 samples.

Results

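The 10 genes described here are direct transcriptional targets of p53: Cdkn1a, Ccng1, Mdm2, Pmaip1, Bbc3, Bax, Fas, Trp53inp1, Phlda3 and Perp. They were taken by gene symbol, and each of the 10 had 1 row among the 32285 genes of the deposited feature lists. Raw counts of unique molecular identifiers (UMIs, 1 per captured transcript) were read for them in droplet single-cell RNA libraries of the rostral mouse neocortex at E15.5. The tested embryos, i4F-Nes, carried Nestin-Cre, the i4F alleles and ROSA-STOP-rtTA (n = 2 libraries), and their control littermates, CTR, carried i4F and ROSA-STOP-rtTA without the Cre (n = 2 libraries). The i4F alleles encode the Yamanaka factors Oct4 (Pou5f1), Sox2, Klf4 and Myc under a promoter that needs rtTA and doxycycline. Nestin-Cre acts in neural progenitors, so rtTA, and with it the factors, is turned on in those cells and their descendants. Dams of both groups drank 0.2 mg/ml doxycycline for 4 days, E10.5 to E14.5, and the cortices were collected 1 day after it was withdrawn. How many embryos went into a library is not given in the sources used here, and the spread that the p-values measure is that between these libraries, which may be technical.

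p53 is a transcription factor that is held at a low level in unstressed cells by the ubiquitin ligase Mdm2, itself a p53 target, and that accumulates after DNA damage or oncogene activity. Its targets include p21 (Cdkn1a), which blocks cyclin-dependent kinases and so the cell cycle, and a set of genes that promote cell death. In reprogramming experiments the p53 and p21 genes are known as barriers to the conversion of somatic cells into pluripotent cells, and in the developing cortex p53 activity is known for removing damaged progenitors.

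RefSeq promoter windows on GRCm38.p6, each reaching 250 bases before and 50 bases after an annotated transcript start, were found for 7 of the 10 genes. The p53 half-site consensus, a 10-base motif that is its own reverse complement and so reads alike on both strands, matched in the windows of 4 of them, Cdkn1a, Mdm2, Bax and Ccng1. A half-site was present in 2745 of all 32851 windows of the same length (8.36%). A pair of half-sites with no more than 13 bases between them, the arrangement that p53 tetramers bind, was present in 24 windows (0.0731%), and window 1 of Cdkn1a was among them. Window 2 of Cdkn1a, at chr17:29093519-29093818, had 0 matches. The bases upstream of the start are printed for Cdkn1a (window 1) and Fas, which rose below, and for Mdm2 and Bax, which carry a match and did not rise. They are shown 5′ to 3′ on the coding strand, with matches to the half-site in capitals.
Cdkn1a: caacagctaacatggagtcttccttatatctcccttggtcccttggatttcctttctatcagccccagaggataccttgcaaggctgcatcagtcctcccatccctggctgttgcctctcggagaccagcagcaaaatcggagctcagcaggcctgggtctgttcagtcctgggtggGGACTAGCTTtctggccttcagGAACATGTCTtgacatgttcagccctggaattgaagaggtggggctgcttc
Fas: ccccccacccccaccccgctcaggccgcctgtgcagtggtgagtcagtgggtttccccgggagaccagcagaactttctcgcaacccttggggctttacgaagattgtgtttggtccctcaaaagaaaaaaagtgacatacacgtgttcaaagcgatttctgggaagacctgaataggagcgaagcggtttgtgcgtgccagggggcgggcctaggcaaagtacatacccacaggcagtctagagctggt
Mdm2: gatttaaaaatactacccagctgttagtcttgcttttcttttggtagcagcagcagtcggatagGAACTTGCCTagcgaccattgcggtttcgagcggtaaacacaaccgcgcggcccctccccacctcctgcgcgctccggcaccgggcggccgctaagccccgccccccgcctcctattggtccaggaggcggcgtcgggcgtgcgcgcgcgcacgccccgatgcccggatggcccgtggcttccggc
Bax: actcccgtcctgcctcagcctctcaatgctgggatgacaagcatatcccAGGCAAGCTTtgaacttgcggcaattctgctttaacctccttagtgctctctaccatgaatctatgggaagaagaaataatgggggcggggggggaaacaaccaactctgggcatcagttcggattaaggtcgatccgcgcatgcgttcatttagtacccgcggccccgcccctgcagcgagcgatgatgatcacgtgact
These lie at chr17:29090729-29090978 (Cdkn1a, plus strand), chr19:34290409-34290658 (Fas, plus strand), chr10:117710759-117711008 (Mdm2, minus strand) and chr7:45466899-45467148 (Bax, minus strand). Fas had no match in its window. The absence of a match says only that these letters are not in these bases, and a match is no evidence of binding.

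The 4 libraries held 35255 barcodes and 458145772 UMIs, and 26641 cells were kept after filtering: 7498 and 6407 in i4F-Nes, against 6046 and 6690 in CTR. Median depth was 15162 and 11320 UMIs per cell in i4F-Nes, against 15133 and 11621 in CTR. Any pair of libraries shared 20 to 31 barcodes. The labels call the cells cortical neurons, but gates on marker UMIs also found radial glia, intermediate progenitors, microglia and other types, and each gate described here raised at least 3 of the 5 markers held back to check it. CTR library 1 stood apart in Xist, at 0.01 CPM (UMIs of the gene per 1000000 UMIs of the summed cells), against 848.5 to 1158 CPM in the other 3 libraries. Pou5f1 was found at 30.1 and 10.8 CPM in i4F-Nes, against 1.88 and 1.28 CPM in CTR, and transgene and endogenous transcripts cannot be told apart.

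Summed over all kept cells of a library, transcripts of Cdkn1a, Pmaip1 and Fas were more abundant after factor induction, and those of the other 7 members did not pass the test. Cdkn1a stood at 38.8 and 38.0 CPM in i4F-Nes, against 2.45 and 2.34 CPM in CTR, from 4993 and 2977 UMIs against 237 and 191 UMIs. The group means were 38.4 ± 0.587 CPM in i4F-Nes and 2.39 ± 0.0806 CPM in CTR (SD, n = 2 each). Both i4F-Nes libraries were well above both CTR libraries, and edgeR's quasi-likelihood test on the 4 summed libraries gave a log2 fold change of 3.91 ± 0.157 (SE) with a Benjamini-Hochberg adjusted p of 0.00467. Pmaip1, which encodes the BH3-only death protein Noxa, stood at 10.47 and 11.2 CPM in i4F-Nes, against 0.76 and 0.82 CPM in CTR (log2 fold change 3.68 ± 0.225, adjusted p = 0.00796, edgeR). Fas, the death receptor for Fas ligand, was rare, at 0.77 and 0.93 CPM in i4F-Nes (99 and 73 UMIs), against 0.08 and 0.12 CPM in CTR (8 and 10 UMIs). Its groups did not overlap either, and its log2 fold change was 2.96 ± 0.411 (adjusted p = 0.0384, edgeR).

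Perp, a membrane protein of cell junctions that takes part in p53-dependent death, differed between the i4F-Nes libraries: it stood at 10.3 and 4.10 CPM there, against 0.87 and 0.65 CPM in CTR. Both i4F-Nes values were above both CTR values, but the change of 3.15 ± 0.511 on the log2 scale did not pass the threshold of 0.05 (adjusted p = 0.0567, edgeR). Phlda3, which restrains the kinase Akt, stood at 8.68 and 8.55 CPM in i4F-Nes, against 4.71 and 5.80 CPM in CTR, and did not pass either (log2 fold change 0.62 ± 0.206, adjusted p = 0.287, edgeR). Mdm2 stood at 68.2 and 51.1 CPM in i4F-Nes, against 72.9 and 57.4 CPM in CTR, and the groups overlapped. So did those of Bax, the pore-forming protein of mitochondrial death, at 192 and 218 CPM in i4F-Nes, against 216 and 248 CPM in CTR. Bbc3, which encodes the BH3-only protein Puma, stood at 21.8 and 22.9 CPM in i4F-Nes, against 18.3 and 22.7 CPM in CTR. Ccng1, a cyclin that feeds back on p53 through Mdm2, stood at 9.57 and 9.27 CPM in i4F-Nes, against 7.33 and 8.90 CPM in CTR. Trp53inp1, a nuclear stress protein, stood at 29.1 and 27.6 CPM in i4F-Nes, against 32.4 and 30.01 CPM in CTR. The Bbc3 groups overlapped, while both i4F-Nes values of Ccng1 were above both CTR values and those of Trp53inp1 below them. These 5 genes had log2 fold changes between -0.27 (Bax) and 0.12 (Ccng1), with adjusted p-values from 0.591 to 0.972 (edgeR).

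Thus 3 of the 10 genes passed, all of them higher. Of these, Fas entered the test only through its i4F-Nes counts, so its call is not counted against all genes. Cdkn1a and Pmaip1 passed where 405 of 18556 genes tested passed (2.18%), all of them higher as well. The median log2 fold change of the 10 was 0.37, against -0.02 over all genes tested. Trp53 itself, which is regulated mostly as a protein, stood at 119 and 84.5 CPM in i4F-Nes, against 121 and 82.7 CPM in CTR. In such sums, more cells of a type and more RNA per cell cannot be told apart, so the cells that held the transcripts were examined next.

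**Figure D1:**
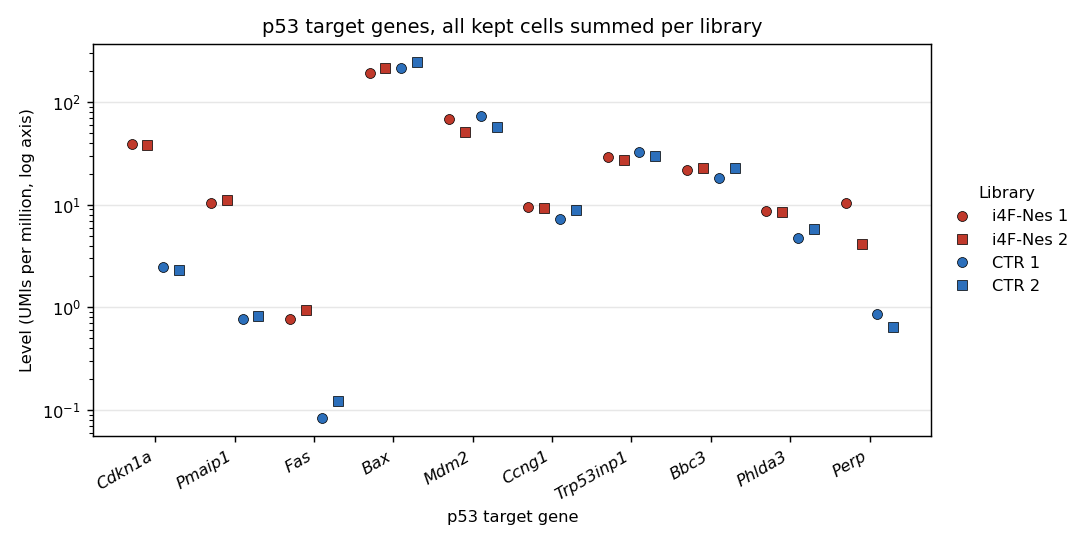
CPM of the 10 p53 target genes over all kept cells, 1 point per library, on a log axis, with i4F-Nes left of CTR. Cdkn1a, Pmaip1, Fas and Perp have both i4F-Nes points above both CTR points by several fold, while Mdm2 and Bax overlap between the groups.

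Most Cdkn1a transcripts of the i4F-Nes libraries came from few cells. Cells with Krt8, Crabp2 and an Ebf gene, a keratin, a retinoic acid carrier and a transcription factor family, numbered 269 and 194 in i4F-Nes (3.59% and 3.03% of cells), and there were 0 in CTR, which allows up to 0.061% and 0.0551% by the exact interval. They held 66.2% and 46.4% of the Cdkn1a UMIs of the i4F-Nes libraries. Cells with Cytl1 and either Anxa1 or Cd109 numbered 178 and 172 in i4F-Nes (2.37% and 2.68%) and likewise 0 in CTR, and they held 9.97% and 13.6% of the Cdkn1a UMIs. A further 19.4% and 33.8% lay in other cells that had at least 1 UMI of Krt8, Cytl1, Anxa1, Cd109 or Lgals7, called marker UMIs from here on. Cells with none of these held only 4.45% and 6.18% of the Cdkn1a UMIs in i4F-Nes, against 87.3% and 91.6% in CTR.

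Other members were spread differently. Of the Mdm2 UMIs in i4F-Nes, 61.9% and 68.1% lay in cells with no marker UMI, which were 68.9% and 78.0% of the cells and held 59.9% and 66.2% of all UMIs. Pmaip1 was held less by the Krt8 Crabp2 Ebf cells (23.6% and 11.5% of its UMIs) than by other cells with a marker UMI (49.3% and 63.2%), and 5.87% and 6.27% lay in cells with none. Perp UMIs were divided among the Krt8 Crabp2 Ebf cells (35.0% and 22.7%), the Cytl1 Anxa1 cells (21.7% and 27.1%), other cells with a marker UMI (38.1% and 39.9%) and the rest (5.21% and 10.3%).

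With the Krt8 Crabp2 Ebf and Cytl1 Anxa1 cells left out, Cdkn1a was at 10.53 and 17.2 CPM in i4F-Nes, and its log2 fold change against CTR, 2.46, no longer passed (adjusted p = 0.0761, edgeR). With every cell holding a marker UMI left out, Cdkn1a stood at 2.88 and 3.55 CPM in i4F-Nes, against 2.42 and 2.32 CPM in CTR. The log2 fold change was then 0.40 ± 0.247 (adjusted p = 1.00, edgeR), and 0 of the 10 members and 0 of 17770 genes passed, with 318 genes at an unadjusted p under 0.05. Both i4F-Nes values remained above both CTR values. The genes that define the marker UMIs were chosen after the data had been seen.

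Radial glia-like cells, the cortical stem cells that express Pax6, Hes5 and Slc1a3, had more Cdkn1a, Pmaip1, Perp and Fas in i4F-Nes. There were 950 and 604 of them in i4F-Nes, against 586 and 386 in CTR. Cdkn1a stood at 34.8 and 44.1 CPM in i4F-Nes, against 1.49 and 0.92 CPM in CTR (log2 fold change 4.96 ± 0.297, adjusted p = 7.11e-05, edgeR). Perp stood at 22.4 and 9.56 CPM in i4F-Nes, against 0.37 and 0.37 CPM in CTR (5.42 ± 0.579, adjusted p = 0.000982, edgeR), and Fas at 2.32 and 3.04 CPM, versus 0.65 and 0.37 CPM (2.28 ± 0.517, adjusted p = 0.0336, edgeR). Pmaip1 had 1031 UMIs in i4F-Nes, against 3 in CTR, a ratio of levels of 185 (counting interval 63.0 to 897), and passed (adjusted p = 0.000114, edgeR). In each of the 4 genes both i4F-Nes libraries were above both CTR libraries, a separation whose share over all genes was not counted. All 10 genes were tested, but Pmaip1, Perp and Fas entered only through their i4F-Nes counts. Their calls are therefore not counted against the 1056 of 14153 genes that passed in this class (7.46%). Cdkn1a passed, and the other 6 had adjusted p-values of 0.210 or more (edgeR).

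Within the radial glia-like cells of i4F-Nes the increase lay in the cells with a marker UMI, 350 and 259 of them, against 600 and 345 without. Cdkn1a stood at 64.1 and 76.8 CPM with a marker UMI, against 1.90 and 1.44 CPM without. CTR radial glia-like cells with no marker UMI had 1.42 and 0.96 CPM, and the few CTR radial glia-like cells with one, 38 and 17, had 2.26 and 0 CPM. Among cells with no marker UMI, both i4F-Nes values were above both CTR values by a small margin that did not pass (log2 fold change 0.45 ± 0.508, adjusted p = 0.990, edgeR), and 0 of 12893 genes passed in that comparison, with 549 at an unadjusted p under 0.05. Pmaip1 stood at 54.8 and 75.7 CPM with a marker UMI, against 0 and 0.21 CPM without, Perp at 41.9 and 16.9 CPM against 0.45 and 0 CPM, and Fas at 3.68 and 4.58 CPM against 0.78 and 1.03 CPM.

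Set against each other with library as a block, the cells with and without a marker UMI differed in 6 of the 10 genes, all of them higher with a marker UMI. Of these, Pmaip1, Perp and Fas entered the test only through the cells with a marker UMI. Their calls are therefore not counted against the 5065 of 13666 genes that passed (37.1%). Cdkn1a had a log2 fold change of 5.35 ± 0.203 (adjusted p = 1.52e-10, edgeR), Perp one of 6.82 ± 0.365 (adjusted p = 6.38e-09) and Fas one of 2.23 ± 0.460 (adjusted p = 0.00157). Pmaip1 had 1030 UMIs against 1, a ratio of levels of 867 (counting interval 155 to 34270). Bbc3 stood at 9.55 and 10.7 CPM with a marker UMI, against 5.26 and 4.12 CPM without (1.12 ± 0.262, adjusted p = 0.00376, edgeR). Trp53inp1 stood at 7.96 and 14.2 CPM, versus 6.05 and 5.76 CPM (0.86 ± 0.270, adjusted p = 0.0233, edgeR). Mdm2 (-0.06), Bax (-0.15), Phlda3 (0.15) and Ccng1 (0.53) did not pass on the log2 scale. The median of the 10, Pmaip1, Perp and Fas among them, was 0.99, against 0.01 over all genes tested, and it does not depend on the size of the Pmaip1 ratio. Cells with a marker UMI were deeper, with a median of 27111 and 21947 UMIs, against 14490 and 14214 UMIs. With every cell thinned to 5000 UMIs, which left out 3 and 4 cells with a marker UMI and 67 and 55 without, a Cdkn1a UMI was seen in 16.7% and 22.0% of cells with a marker UMI, against 0.75% and 0.345% of cells without. The split into cells with and without a marker UMI was itself made on full counts.

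Immediate-early and stress transcripts, which papain dissociation can raise, moved with the same cells. The summed level of 15 such genes was 2562 and 2458 CPM in i4F-Nes radial glia-like cells with a marker UMI, against 1212 and 979 CPM in those without. CTR radial glia-like cells with a marker UMI had 1453 and 1301 CPM. Of the 14 tested between the i4F-Nes cells with and without a marker UMI, 13 were higher, among them Nr4a1 (log2 fold change 4.65 ± 0.129) and Egr1 (4.49 ± 0.122, adjusted p = 1.2e-11 each, edgeR). Their part in the p53 target result was not tested.

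The Krt8 Crabp2 Ebf cells had the highest Cdkn1a level of any class sum of at least 10 cells, at 412 and 335 CPM in the i4F-Nes libraries. The genes that gate them came from earlier clusters of these same cells, made on all genes, so the tests on them are not independent of the cells' expression. In each library 3 of 5 check markers were more than 2-fold above the other cells, with none at 0. The transcript was widespread among the cells: 69.3% and 57.9% had a Cdkn1a UMI at 5000 UMIs per cell, with 2 and 4 shallower cells left out, and 92.2% and 84.5% had one at full depth (median 25792 and 19952 UMIs). The median cell had 324 and 210 CPM, the highest cell held 77 and 87 UMIs, and the top 10% of cells held 35.4% and 37.8% of the transcripts. Pmaip1 was more concentrated, with 76.0% and 87.1% of its UMIs in the top 10% of these cells. Cells with both transcripts numbered 19 and 7 after thinning, against 18.7 and 6.37 given by the product of their shares.

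Newborn neuron-like cells of the same libraries, gated on Neurod1, were the comparison for the Krt8 Crabp2 Ebf cells. Cdkn1a stood at 412 and 335 CPM in the Krt8 Crabp2 Ebf cells, against 4.78 and 21.5 CPM in the newborn neurons (log2 fold change 4.98 ± 0.734, adjusted p = 0.0147, edgeR). The call was lost without the filter on low counts (4.94, adjusted p = 0.320), and the value was 3.86 without i4F-Nes library 1 and 6.19 without library 2. Newborn neurons with no marker UMI stood at 1.53 and 2.29 CPM, and against them the log2 fold change was 7.55 ± 0.228 (adjusted p = 9.58e-06, edgeR). Pmaip1 (5.44 ± 0.754), Perp (5.19 ± 0.299), Phlda3 (2.26 ± 0.376), Bbc3 (1.40 ± 0.182) and Ccng1 (0.96 ± 0.205) were also higher on the log2 scale, with adjusted p-values from 0.000341 to 0.0148 (edgeR). Bax was lower (log2 fold change -0.35 ± 0.107, adjusted p = 0.0432, edgeR), and its adjusted p became 0.0587 when newborn neurons with a marker UMI were left out (6281 of 13408 genes, 46.8%, passed then). Mdm2 and Trp53inp1 did not pass, and Fas had 7 UMIs against 1 and was not tested. Thus 7 of 9 genes tested passed. Of these, Pmaip1 and Perp entered the test only through the Krt8 Crabp2 Ebf cells. The 7 are therefore not set against the 6361 of 13705 genes that passed (46.4%).

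The Cytl1 Anxa1 cells, in which all 5 check markers (Hopx, Crip1, S100a11, Lgals1 and Tppp3) were more than 2-fold above the other cells, were set beside the radial glia-like cells of i4F-Nes. In the Cytl1 Anxa1 cells Cdkn1a stood at 66.5 and 79.1 CPM, Pmaip1 at 38.2 and 32.6 CPM, Perp at 38.3 and 17.0 CPM and Fas at 5.21 and 1.95 CPM. Against all i4F-Nes radial glia-like cells, Cdkn1a (log2 fold change 0.95 ± 0.0936, adjusted p = 8.09e-05, edgeR), Perp (0.85 ± 0.131, adjusted p = 0.00120) and Phlda3 (0.44 ± 0.135, adjusted p = 0.0367) were higher. That made 3 of 10, where 3780 of 14054 genes passed (26.9%). Against radial glia-like cells with no marker UMI, 7 of the 10 were higher, with Cdkn1a at 5.43 ± 0.221 (adjusted p = 6.11e-11, edgeR) and Pmaip1 at 453 UMIs against 1 (ratio of levels 495, counting interval 88.5 to 19610). Pmaip1, Perp and Fas entered that test only through the Cytl1 Anxa1 cells. The 7 are therefore not set against the 5632 of 13401 genes that passed (42.0%).

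The Krt8 Crabp2 Ebf cells and the Cytl1 Anxa1 cells, both from the i4F-Nes libraries, differed in which p53 targets they held. Bbc3 stood at 56.5 and 50.7 CPM in the Krt8 Crabp2 Ebf cells, against 9.88 and 11.1 CPM in the Cytl1 Anxa1 cells (log2 fold change 2.36 ± 0.161, adjusted p = 9.83e-06, edgeR). Cdkn1a differed by the same factor (2.36 ± 0.157, adjusted p = 1.14e-05, edgeR). Trp53inp1 stood at 32.8 and 46.4 CPM, versus 9.21 and 14.7 CPM (1.75 ± 0.165, adjusted p = 5.39e-05, edgeR). Mdm2 (0.60, adjusted p = 0.00749) and Ccng1 (0.71, adjusted p = 0.0245) were also higher in the Krt8 Crabp2 Ebf cells. In the other direction, Fas stood at 0.75 and 0.24 CPM in the Krt8 Crabp2 Ebf cells, against 5.21 and 1.95 CPM in the Cytl1 Anxa1 cells (-2.80 ± 0.547, adjusted p = 0.00323, edgeR). Phlda3 was lower too, at 15.7 and 12.6 CPM, versus 24.97 and 20.5 CPM (-0.68, adjusted p = 0.0160, edgeR). Pmaip1 (-0.15), Bax (0.27) and Perp (0.40) did not pass on the log2 scale. In all 7 of 10 passed, 5 higher and 2 lower. Of these, Fas entered the test only through the Cytl1 Anxa1 cells. The 7 are therefore not set against the 5726 of 13609 genes that passed (42.1%). The Bbc3 and Trp53inp1 levels of the Krt8 Crabp2 Ebf cells can be set beside those of other classes: Bbc3 stood at 29.0 and 29.9 CPM in deep-layer neuron-like cells of i4F-Nes, against 27.5 and 31.1 CPM in those of CTR, and Trp53inp1 at 64.6 and 56.7 CPM in intermediate progenitor-like cells of i4F-Nes, against 59.5 and 58.6 CPM in those of CTR.

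**Figure D2:**
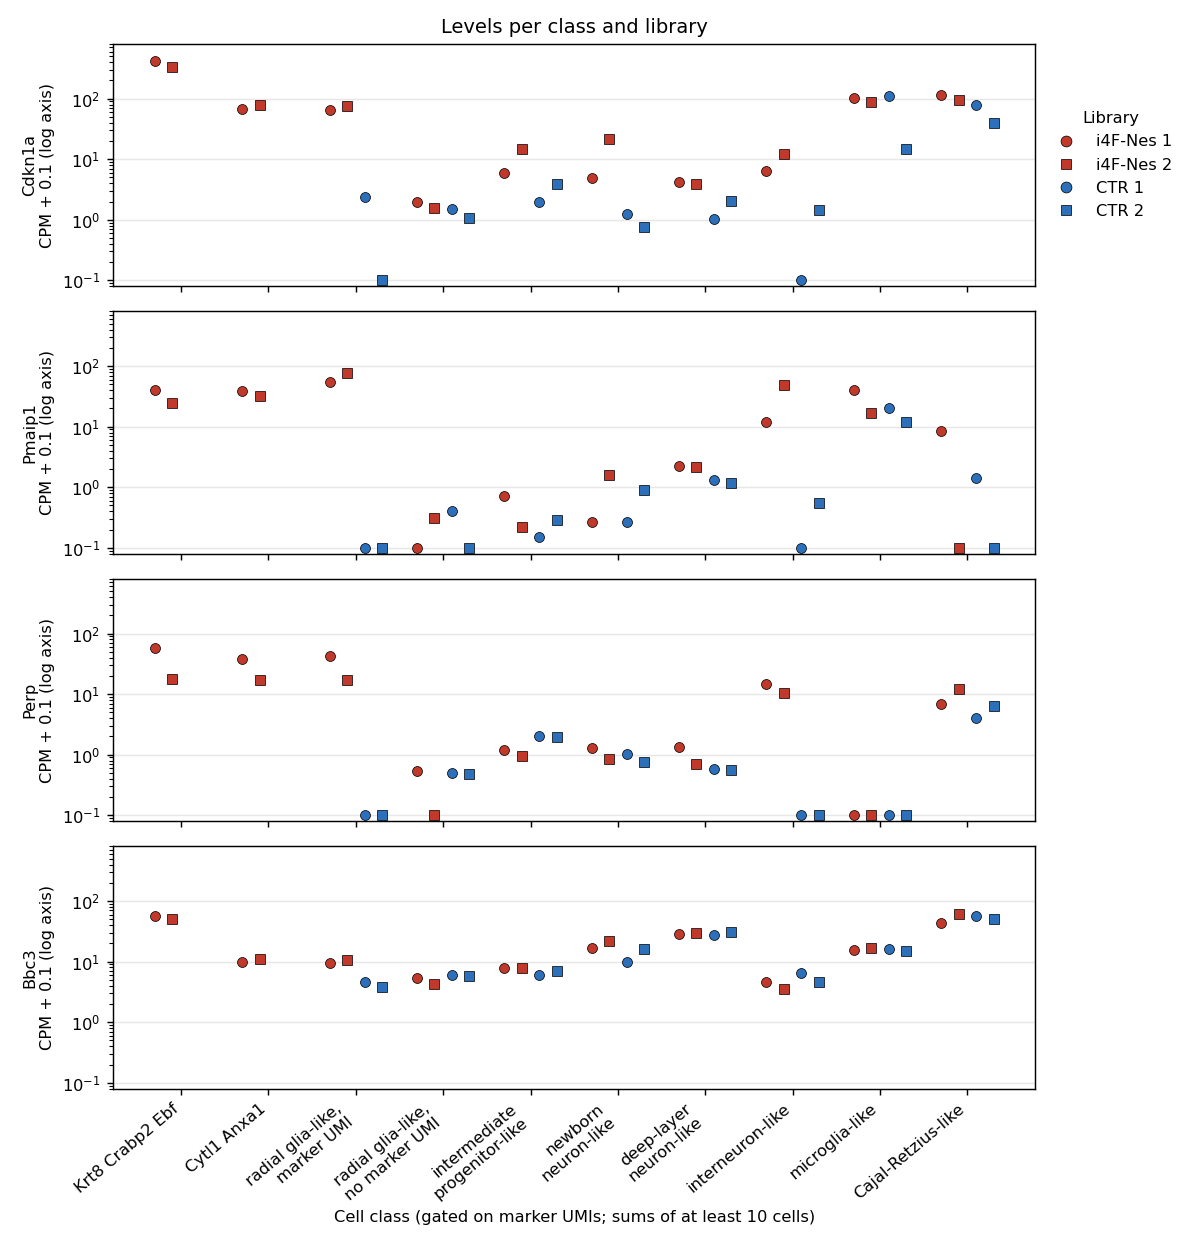
Levels of Cdkn1a, Pmaip1, Perp and Bbc3 in 10 cell classes, 1 point per library, in CPM plus 0.1 on a log axis, i4F-Nes left of CTR, for sums of at least 10 cells. Cdkn1a stands at 412 and 335 CPM in the Krt8 Crabp2 Ebf cells, and radial glia-like cells with no marker UMI lie together for i4F-Nes and CTR.

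**Figure D3:**
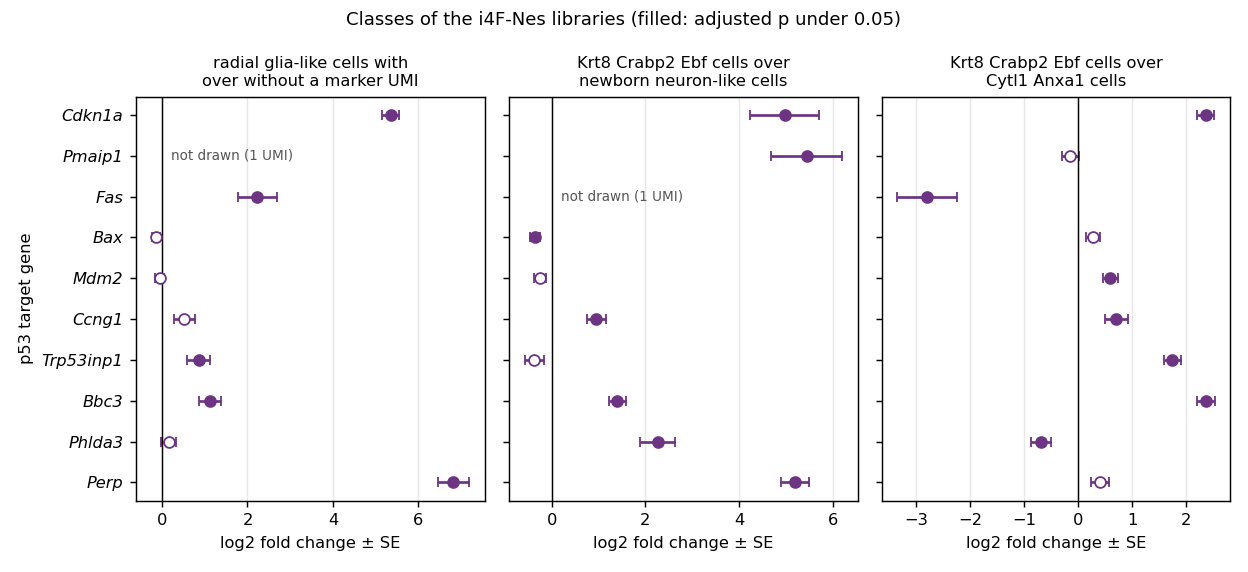
Log2 fold changes with standard errors of the 10 genes in 3 comparisons within i4F-Nes libraries, filled where the adjusted p is under 0.05: radial glia-like cells with against without a marker UMI, Krt8 Crabp2 Ebf cells against newborn neuron-like cells, and Krt8 Crabp2 Ebf cells against Cytl1 Anxa1 cells. Genes with 1 UMI on the lower side are not drawn, and Fas and Phlda3 lie below 0 in the third comparison.

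In interneuron-like cells most UMIs of Pmaip1, Perp and Cdkn1a lay in i4F-Nes. Interneuron-like cells, gated on Gad and Dlx genes (112 and 63 in i4F-Nes, against 138 and 276 in CTR), had 41 Pmaip1 UMIs in i4F-Nes, against 1 in CTR, a ratio of levels of 84.2 (counting interval 14.3 to 3404). They had 22 Perp UMIs, against 0, at least 15.05-fold higher when CTR is set at 3 UMIs over the group. Both entered the edgeR test only through their i4F-Nes counts, so their calls are not counted here against the 180 of 10001 genes that passed in this class (1.80%). In this class 28 cells held a marker UMI, and with them left out neither gene had enough counts to be tested. Cdkn1a had 14 UMIs in i4F-Nes, against 3 in CTR, in the same class, a ratio of levels of 9.58 (counting interval 2.67 to 51.98).

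Neurons and their immediate precursors showed Cdkn1a levels above CTR in both i4F-Nes libraries, without passing edgeR's test as set out above. In newborn neuron-like cells Cdkn1a stood at 4.78 and 21.5 CPM in i4F-Nes, against 1.17 and 0.67 CPM in CTR (log2 fold change 3.72 ± 0.856, adjusted p = 0.878, edgeR). It passed there in DESeq2 (3.78, adjusted p = 0.000146), in edgeR without the filter on low counts (adjusted p = 8.24e-12) and without i4F-Nes library 1 (4.46, adjusted p = 0.00448), and the value was 2.27 without i4F-Nes library 2. In intermediate progenitor-like cells, gated on Eomes, it stood at 5.82 and 14.4 CPM, versus 1.84 and 3.75 CPM (1.85, adjusted p = 0.590). It passed there without the filter on low counts (adjusted p = 7.96e-06), with the replicate number as a block (adjusted p = 0.00167) and without i4F-Nes library 1 (2.42, adjusted p = 8.74e-08), and the value was 1.06 without i4F-Nes library 2 and 1.34 without CTR library 1. In deep-layer neuron-like cells it was at 4.13 and 3.75 CPM, versus 0.93 and 1.92 CPM (1.42, adjusted p = 1.00). With cells holding a marker UMI left out, the log2 fold change of Cdkn1a was 1.1 in newborn neuron-like, -0.35 in intermediate progenitor-like and 0.37 in deep-layer neuron-like cells, and passed in none of them. At 5000 UMIs per cell, 1.70% and 1.49% of deep-layer neuron-like cells had a Cdkn1a UMI in i4F-Nes, against 0.583% and 0.574% in CTR. Radial glia-like cells with no marker UMI, set beside them as cells with a low Cdkn1a level, had 0.75% and 0.345% in i4F-Nes, against 0.393% and 0 of 329 cells (up to 0.912%) in CTR. The level that free RNA gives was not measured. In each of these 3 classes 0 members passed, where 0.0648% of 13898 genes passed in intermediate progenitors and 0 of 12977 and 15692 genes in newborn and deep-layer neurons. At an unadjusted p under 0.05 edgeR had 388 genes in newborn and 350 in deep-layer neurons, where DESeq2 called 57 genes, Cdkn1a among them, and 42 genes without it.

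Some classes had Cdkn1a without factor induction. Cajal-Retzius-like cells, the early Reln-positive neurons of the cortical surface (24 and 11 in i4F-Nes, against 22 and 21 in CTR), stood at 116 and 95.9 CPM in i4F-Nes, against 79.4 and 39.9 CPM in CTR. Their Bbc3 level was 44.2 and 60.0 CPM, versus 57.3 and 49.5 CPM, with overlapping groups. Microglia-like cells stood at 101 and 89.5 CPM Cdkn1a in i4F-Nes, against 110 and 14.8 CPM in CTR, and 0 of 3 members tested passed there, where 16 of 4989 genes passed (0.321%). Endothelial-like cells had 301 CPM in the 35 cells of i4F-Nes library 2, against 105 and 203 CPM in 17 and 10 cells of CTR. These sums rest on few cells, and of these 3 classes only the microglia-like cells reached 20 in every library.

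Cdkn1a was then set against Mki67, a marker of cycling cells. Each cell was thinned to 5000 UMIs and called Mki67-positive if at least 1 Mki67 UMI was left, and full counts were summed per library and state. In the Krt8 Crabp2 Ebf cells, 35 and 21 cells were positive, against 232 and 169 negative. Cdkn1a stood at 194 and 253 CPM in Mki67-positive cells, against 463 and 350 CPM in Mki67-negative cells (log2 fold change -0.84 ± 0.183, adjusted p = 0.00749, edgeR with library as a block). It was lower with Mki67 in both libraries, more so in library 1: without library 2 the value was -1.22 and without library 1 it was -0.38. Bbc3 was lower as well, at 18.4 and 16.6 CPM in Mki67-positive cells, against 65.8 and 56.5 CPM in Mki67-negative cells (-1.78 ± 0.233, adjusted p = 0.000379, edgeR). Pmaip1 was higher, at 50.6 and 48.0 CPM, versus 36.9 and 20.6 CPM (0.77 ± 0.244, adjusted p = 0.0428, edgeR). Those were 3 of 9 members tested, where 2882 of 11769 genes passed (24.5%). Of 16 cell cycle genes 12 were higher with Mki67 in these cells, as were 8 of 14 immediate-early and stress genes, among them Fos, Egr1 and Nr4a1, where 13.2% of all genes tested were higher, and the part of either in the member values was not tested. The 16 hold Mki67 itself, whose own rise the split fixed in advance. The Cdkn1a call was lost when doublets were not removed (-0.58, adjusted p = 0.168) and when cells were thinned to 10000 UMIs (-0.64, adjusted p = 0.182).

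The Cytl1 Anxa1 cells, of which 88 and 62 were positive, against 90 and 108 negative, had nearly equal Cdkn1a levels in both states. Cdkn1a stood at 66.2 and 79.9 CPM in Mki67-positive cells, against 66.9 and 78.7 CPM in Mki67-negative cells (log2 fold change 0.04 ± 0.127, adjusted p = 0.923, edgeR). The value moved to -0.64 with gates on thinned cells (adjusted p = 0.123) and to 0.38 with Top2a in place of Mki67 (adjusted p = 0.107). In a comparison added after the data had been seen, the log2 fold change of Cdkn1a by Mki67 state was set between these classes. The difference, Krt8 Crabp2 Ebf cells minus Cytl1 Anxa1 cells, was -0.89 ± 0.245 (adjusted p = 0.0402, edgeR interaction term). No other member passed in this comparison, and 1146 of 12770 genes did (8.97%). The split by Mki67 also differed between these cells in the cycle itself, counted over 16 genes that hold Mki67, whose own rise the split fixed in advance. In the Cytl1 Anxa1 cells 3 of 16 cell cycle genes were higher with Mki67, where 5.39% of genes were. In the interaction 10 of 16, Mki67, Top2a and Ccna2 among them, had the larger log2 fold change by Mki67 state in the Krt8 Crabp2 Ebf cells. So did 6 of 15 immediate-early and stress genes, where 6.16% of genes did. Their part in the Cdkn1a difference was not tested, and the interaction was not fitted with gates on thinned cells. Within the Cytl1 Anxa1 cells Fas was higher with Mki67, at 7.95 and 3.76 CPM, versus 1.56 and 0.37 CPM (2.58 ± 0.604, adjusted p = 0.00554, edgeR). Bbc3, at 5.14 and 8.37 CPM, versus 16.2 and 13.6 CPM, and Trp53inp1, at 5.61 and 10.46 CPM, versus 14.0 and 18.4 CPM, were lower with Mki67 (-1.18 and -1.03, adjusted p = 0.0193 and 0.0283, edgeR). No member passed in DESeq2 or with gates on thinned cells, where Bbc3 was at -1.16 and -0.36. Fas entered the main test only through the Mki67-positive cells. The 3 of 10 called there are therefore not set against the 963 of 11846 genes that passed (8.13%).

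In radial glia-like cells of all 4 libraries, Cdkn1a stood at 33.6 and 30.4 CPM in Mki67-positive cells of i4F-Nes, against 37.2 and 61.9 CPM in Mki67-negative cells of i4F-Nes. The CTR values were 0.83 and 0.36 CPM in positive cells, against 2.06 and 1.17 CPM in negative cells. The level was lower with Mki67 in every library (log2 fold change -0.57 ± 0.179, adjusted p = 0.0467, edgeR), but i4F-Nes library 1 differed little, and without i4F-Nes library 2 the value was -0.17 (adjusted p = 0.506) and without i4F-Nes library 1 it was -1.04. It was not called in DESeq2 either (-0.68, adjusted p = 0.172). Bbc3 (-0.91, adjusted p = 0.00447), Phlda3 (-0.58, adjusted p = 0.0127) and Trp53inp1 (-0.70, adjusted p = 0.0459) were lower too, which made 4 of 9 members tested, where 2834 of 12668 genes passed (22.4%). With cells holding a marker UMI left out, Bbc3 (-0.89) and Phlda3 (-0.72) still passed, where 27.8% of genes did, and Cdkn1a had too few counts to be tested. In the radial glia-like cells with a marker UMI, Cdkn1a stood at 58.2 and 54.9 CPM with Mki67, against 71.7 and 101 CPM without (-0.52 ± 0.172, adjusted p = 0.269), and edgeR called 0 of 12472 genes there, with 1818 at an unadjusted p under 0.05. Bbc3 did not pass in them (-0.87, adjusted p = 0.244, edgeR).

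Counted cell by cell after thinning, the transcripts of Cdkn1a and Mki67 were found in the same cells. In the Krt8 Crabp2 Ebf cells, 51.4% and 57.1% of Mki67-positive cells had a Cdkn1a UMI, against 72.0% and 58.0% of Mki67-negative cells. Cells with both numbered 18 and 12, against 24.3 and 12.2 given by the product of their shares. In the Cytl1 Anxa1 cells the shares were 27.3% and 27.4%, against 16.7% and 25.9%, and cells with both numbered 24 and 17, against 19.3 and 16.4 from the product. In radial glia-like cells with a marker UMI the shares were 17.2% and 22.7%, against 16.2% and 21.4%. Cells are not replicates, so no test was made on these counts, and library 1 and library 2 differed in how far the counts departed from the product.

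**Figure D4:**
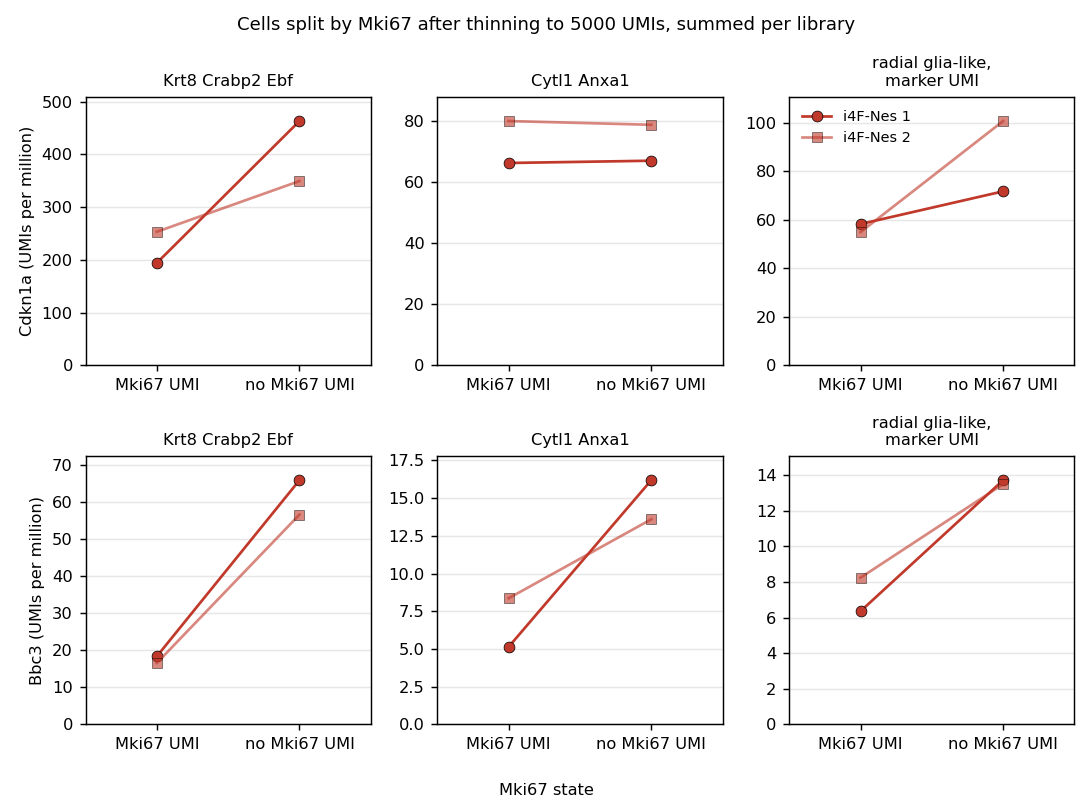
CPM of Cdkn1a and Bbc3 in cells with a Mki67 UMI, left, and without one, right, with a line for each i4F-Nes library, in Krt8 Crabp2 Ebf cells, Cytl1 Anxa1 cells and radial glia-like cells with a marker UMI. The Cdkn1a lines of the Cytl1 Anxa1 cells are level (66.2 and 79.9 CPM, versus 66.9 and 78.7 CPM), while Bbc3 is lower with Mki67 in both libraries of all 3 classes.

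The other genes of the pathway were read in lists. Over all kept cells, 0 of 38 further p53 targets passed (median log2 fold change 0.11, against -0.02 over all genes tested), nor did any of 17 regulators of p53 or 22 genes of the death machinery. Of 16 partners of p21 and cell cycle genes, 2 were higher, cyclin D1 (Ccnd1, 1.97 ± 0.189, adjusted p = 0.0183) and Mki67 (1.11 ± 0.127, adjusted p = 0.0242, edgeR). None of 5 other inhibitors of cyclin-dependent kinases passed. Of the 15 immediate-early and stress genes, 4 were higher, Nr4a1 (2.18), Egr2 (2.52), Egr1 (2.18) and Zfp36 (1.55), with adjusted p-values from 0.0229 to 0.0477 (edgeR). In radial glia-like cells, i4F-Nes against CTR, 4 of 37 further targets were higher and 1 was lower, where 6.92% and 0.544% of all genes tested were. Sesn2, which restrains mTOR signalling under stress, had a log2 fold change of 2.54 ± 0.508 (adjusted p = 0.0194), the antiproliferative gene Btg2 one of 0.72 ± 0.169 (adjusted p = 0.0375), and Rprm one of -0.84 ± 0.160 (adjusted p = 0.0162, edgeR). The 2 others that were higher were Ak1 (1.79) and Def6 (4.99). Casp8, the caspase that acts below death receptors, was the single member of the death machinery that passed, at 0.99 ± 0.229 (adjusted p = 0.0368, edgeR), of 22 tested.

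Between radial glia-like cells with and without a marker UMI in i4F-Nes, 11 of 36 further targets were higher and 7 lower (median 0.17, against 0.01 over all genes tested), where 20.4% of all genes were higher and 16.7% lower. Btg2 stood at 313 and 381 CPM with a marker UMI, against 116 and 110 CPM without (log2 fold change 1.66 ± 0.107, adjusted p = 1.17e-07, edgeR). Rprm (-1.52) and the death-associated gene Siva1 (-0.81) were lower. Zmat3, a target that regulates splicing, and the nuclease gene Aen were not higher: Zmat3 stood at 18.01 and 17.2 CPM, versus 28.3 and 23.3 CPM, and Aen at 32.6 and 29.7 CPM, versus 45.3 and 51.9 CPM, both named after their values were seen. Of 21 genes of the death machinery, 7 were higher, among them the BH3-only genes Bid (2.03), Bik (2.52) and Bcl2l11 (1.06) with Casp8 (1.60) and Bak1 (1.20), and 4 were lower, among them the survival gene Bcl2 (-1.08). Trp53 itself was higher by 0.49 ± 0.0941 on the log2 scale (adjusted p = 0.000933, edgeR), at 179 and 134 CPM against 138 and 94.4 CPM. Of 4 other kinase inhibitors, Cdkn1c, which encodes p57, was higher (2.98 ± 0.258, adjusted p = 6.42e-07, edgeR), at 17.7 and 19.8 CPM against 2.13 and 2.88 CPM. Cdkn2c (-0.69) and Cdkn1b (-0.35) were lower.

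In the Krt8 Crabp2 Ebf cells against newborn neurons, 13 of 33 further targets were higher and 6 lower (median 0.51, against 0.00 over all genes tested), where 24.8% of all genes were higher and 21.6% lower. Btg2 stood at 416 and 340 CPM, versus 30.4 and 30.5 CPM (a log2 fold change of 3.52 ± 0.133, adjusted p = 0.000159, edgeR), Gadd45a, a stress gene of growth arrest, was higher by 2.81 ± 0.206 (adjusted p = 0.00065), and Plk2 was lower (-3.64 ± 0.258, adjusted p = 0.000641). Of 22 genes of the death machinery 12 were higher, among them Casp8 (5.16), Bmf (2.47) and Bak1 (2.10), and 1, Bok (-1.50), was lower. Of the 16 cell cycle genes 13 were higher and Cdk6 was lower (-2.85), in cells in which the p21 gene was higher too. All 15 immediate-early and stress genes were higher in the same comparison, with a summed level of 1947 and 1688 CPM in the Krt8 Crabp2 Ebf cells, against 605 and 585 CPM in newborn neurons, and their part in it was not tested. Against the Cytl1 Anxa1 cells, 7 of 36 further targets were higher in the Krt8 Crabp2 Ebf cells and 8 lower, shares near those of all genes (20.5% higher and 21.6% lower). Trp53i11 (3.98 ± 0.145), Plk3 (3.96 ± 0.205) and Gadd45a (1.70 ± 0.191) were among the higher and Siva1 (-1.28 ± 0.120) among the lower, with an adjusted p of 0.000141 for Gadd45a and smaller values for the others (edgeR). In that comparison 12 of 16 cell cycle genes were lower in the Krt8 Crabp2 Ebf cells, among them Mki67 (-2.17 ± 0.138), and 10 of the 15 immediate-early and stress genes were lower, at a summed 1947 and 1688 CPM against 2917 and 2766 CPM.

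The genes whose levels followed Cdkn1a most closely were looked up over 37 sums of a class in a library, among 10030 genes that averaged 10 CPM or more and gate no class. Zdhhc12 (Pearson r = 0.84 of log2(CPM + 1)), Npnt (0.82), Ebp (0.81), Dhrs7 (0.80) and Hpcal1 (0.80) led. Npnt encodes a protein of the extracellular matrix, and Ebp an enzyme of cholesterol synthesis. Of the members above that level, Pmaip1 was at 0.73, Ccng1 at 0.41, Bbc3 at 0.36, Phlda3 at 0.33, Bax at 0.16, Trp53inp1 at -0.12 and Mdm2 at -0.22. Perp and Fas fell below 10 CPM on average. The 37 sums share 4 libraries and differ in depth, so these values only describe the pattern.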

How the data were processed

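Per the file headers, the authors deposited raw UMI counts per gene and cell barcode for each of 4 libraries from Cell Ranger 7.0.1, and per the submitters' processing notes the build was mm10. The sources used here do not give the annotation release, nor whether doublets or free RNA had been removed. Cells with at least 1000 UMIs, 500 genes and at most 10% mitochondrial UMIs were kept, and the highest Scrublet scores (scanpy 1.11.5) were removed at 0.8% per 1000 cells, 2031 in all. Each cell went to the first of 12 gates on marker UMIs that it met, and 2 of these classes are not reported here, 1 of them mural-like cells (0 to 22 per library). Counts were summed per library and class and tested in edgeR 4.0.16 (TMM, filterByExpr, robust quasi-likelihood, Benjamini-Hochberg over all genes tested), with library as a block within i4F-Nes. CPM are plain counts scaled to 1000000 per sum, and intervals (95%, exact Clopper-Pearson) and floors (3 counts) cover counting error only. An exact permutation of 2 against 2 libraries cannot go below p = 0.333. The test was checked on simulated data: in the comparison of all kept cells it recovered 78% of 2-fold and 96% of 4-fold changes. Every simulated gene had the same dispersion, which real genes need not have, so recovery in the data may be lower. DESeq2 1.42.0, other scalings, filters and thinning were alternatives. All 10 members are described, and other list genes are named up to 6 per list by smallest adjusted p. The members, gates and lists were chosen with earlier results of these data known.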

Additional observations from a re-analysis of the deposited data

Results flagged for a closer look

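The log2 fold change of Cdkn1a by Mki67 state differed between the Krt8 Crabp2 Ebf cells and the Cytl1 Anxa1 cells by -0.8937. This difference was tested and passed (adjusted p = 0.0402, edgeR interaction term). Several members had every i4F-Nes library above both CTR libraries in 1 class and below both in another, and these differences between classes were not tested. With 2 libraries against 2, such a separation in a class has an exact permutation p of 0.333, and its share over all genes was not counted. No Bax, Ccng1 or Trp53inp1 difference given here was called by edgeR in its class. The mean level of Bax in i4F-Nes minus that in CTR was 109.3 CPM in microglia-like cells and 22.7 CPM in interneuron-like cells, but -30.7 CPM in radial glia-like cells and -21.95 CPM in deep-layer neuron-like cells. That of Ccng1 was 3.557 CPM in radial glia-like cells and -4.834 CPM in interneuron-like cells. For Trp53inp1 it was 3.918 CPM in radial glia-like cells, against -5.61 CPM in interneuron-like cells and -2.535 CPM in deep-layer neuron-like cells. Perp differed by 12.38 CPM in interneuron-like cells, 15.61 CPM in radial glia-like cells and 0.4378 CPM in deep-layer neuron-like cells, and by -0.9144 CPM in intermediate progenitor-like cells.

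Cells that met no gate entered no class comparison, and their levels were above those of CTR. Cdkn1a stood at 25.32 and 22.66 CPM in ungated cells of i4F-Nes, against 2.30 and 2.09 CPM in those of CTR. Pmaip1 stood at 21.23 and 7.639 CPM in i4F-Nes, against 1.54 and 1.04 CPM in CTR.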

How the results depend on the processing

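Of the values that answer a comparison, 140 kept their direction and their side of the threshold or moved little, 31 moved, 12 no longer passed and 1 newly passed under another setting, and no value that had passed changed sign. The log2 fold change of Cdkn1a by Mki67 state in Cytl1 Anxa1 cells, which did not pass, was 0.04. It turned to -0.64 with gates on thinned cells (adjusted p = 0.123, edgeR). Over all kept cells 3 members passed, 1 without the Cytl1 Anxa1 and Krt8 Crabp2 Ebf cells and 0 without cells holding a marker UMI, with Cdkn1a at 2.46 (adjusted p = 0.0761) and 0.40 (adjusted p = 1.00) on the log2 scale, and at 3.91 to 3.94 when each library was left out in turn. Summed over gated classes, 6 calls of members became 10 with the replicate number as a block, 3 with gates on thinned cells and 0 without cells holding a marker UMI. These calls include genes that entered the test only through their i4F-Nes counts. The pairing is by number only (r = 0.3266 over 18556 genes between the differences of the replicates, 2 pairs), and the block moved the genes called over all kept cells to 1284, with Perp at an adjusted p of 0.0142. For Cytl1 Anxa1 against radial glia-like cells the 3 members became 1 without the library block, 5 with gates on thinned cells and 7 without cells holding a marker UMI. For Krt8 Crabp2 Ebf cells against newborn neurons Cdkn1a did not pass without a filter on low counts (4.94, adjusted p = 0.320), and was 3.86 to 6.19 with 1 library left out. Against Cytl1 Anxa1 cells the 7 members became 3 in DESeq2 and 4 without the library block, and Cdkn1a was 2.08 to 2.65 with 1 library left out. For radial glia-like cells with against without a marker UMI the 6 members became 3 in DESeq2, and Cdkn1a was 4.79 without i4F-Nes library 2 and 5.37 without library 1. By Mki67 state, the 3 members of the Cytl1 Anxa1 cells became 0 in DESeq2 and with gates on thinned cells, and 1 with at most 5% mitochondrial UMIs or with Top2a in place of Mki67. The 4 members of radial glia-like cells became 1 in DESeq2, 2 without cells holding a marker UMI and 2 with any of i4F-Nes library 2, CTR library 1 or CTR library 2 left out. Cdkn1a did not pass there with DESeq2 size factors (-0.55, adjusted p = 0.0535), in DESeq2 (-0.68, adjusted p = 0.172), without i4F-Nes library 2 (-0.17), CTR library 1 (-0.51) or CTR library 2 (-0.56), against -1.04 without i4F-Nes library 1, with gates on thinned cells (-0.16, adjusted p = 0.478) or with 10000 UMIs (-0.49, adjusted p = 0.356). The 3 members of Krt8 Crabp2 Ebf cells became 5 without a filter, and Cdkn1a was -0.58 (adjusted p = 0.168) with doublets kept, -0.64 (adjusted p = 0.182) at 10000 UMIs and -0.38 to -1.22 with 1 library left out. In radial glia-like cells with a marker UMI 0 members became 2 without a filter, where Cdkn1a passed (-0.51, adjusted p = 0.0205), and it was -0.26 to -0.82 with 1 library left out. The cause was not tested for any of these. Values within i4F-Nes with 1 library left out have no test, and settings with marker UMIs were chosen after the data had been seen. Fas and, outside cells with a marker UMI, Pmaip1 and Perp had too few UMIs for small changes to be seen.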
